A study of Mus musculus with 2 samples.

Results

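Gzme (ENSMUSG00000022156) and Gzmd (ENSMUSG00000059256), which encode the serine proteases granzyme E and granzyme D, were followed in periosteal cells that carry the EGFP lineage mark. They are 2 of the 31055 features in the count matrices and 2 of the 10 granzyme genes there. Both were chosen by their UMI counts in EGFP cells after fracture, as earlier results of these data had shown them, so their levels are given as a description and no test was made. The cells came from the periosteum, the sheath around bone, of Prx1Cre;mTmG mice, in which a Cre recombinase active in limb mesenchyme switches a cell and its descendants from membrane tdTomato to membrane EGFP. A first library held cells of uninjured mice (day 0) and a second cells taken on day 3 following fracture of the tibia, both with the 10x Genomics 3′ kit. Both groups share the genotype and the culture: cells grew out of explanted periosteum in medium with serum and bFGF, to near confluence per the growth protocol, while the design text speaks of passage 0 cells taken without expansion. All live cells were loaded, so blood cells of the explant were included. The labels used here give no age, strain or number of animals. Xist and Y-linked transcripts showed male cells in the uninjured library and both male and female cells at day 3, so at least 2 animals entered the latter.

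Granzymes are best known from cytotoxic T cells and natural killer cells. They are stored in secretory granules bound to the proteoglycan serglycin (Srgn), are trimmed to the active form by the dipeptidyl peptidase cathepsin C (Ctsc), and enter target cells through perforin (Prf1) pores. In the mouse, Gzme and Gzmd belong to a group of close paralogs between Mcpt and Gzmb genes, a region that also holds proteases of mast cells, basophils and neutrophils. What their products do in mesenchymal cells is not a textbook matter, and proteins were not measured here.

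The uninjured library held 4573 barcodes and 94034112 UMIs (unique molecular identifiers, each counting 1 captured transcript molecule), and the day 3 library held 16332 barcodes and 227191961 UMIs. After filters, 4269 and 12573 cells remained, with medians of 19397 and 7449 UMIs. Only 3 barcode sequences occurred in both libraries. The cells were grouped into clusters without using any granzyme gene, though Mcpt8 of the same chromosomal region was not excluded. Clusters were pooled into classes by EGFP, Ptprc, C1q and S100a8 plus S100a9 levels. The EGFP lineage class held 2203 uninjured and 3233 day 3 cells, with medians of 24185 and 31902 UMIs, and all 15 of its mesenchymal markers were detected in both libraries. The C1q macrophage class held 1176 and 5031 cells, with medians of 10175.5 and 5333 UMIs. The neutrophil class held 7 and 464 cells, and the day 3 ones had a median of 2904.5 UMIs. A further 624 and 449 cells lay in clusters that mixed EGFP with leukocyte transcripts and were kept apart. So were the 5 and 1140 cells of cluster 3, which had C1q transcripts but a median of only 1765 UMIs, and 254 and 2256 cells of other clusters. Most clusters came almost wholly from 1 library, and some lineage clusters were led by contractile or cartilage genes, so levels are also given cluster by cluster.

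Both genes lie on the minus strand of chromosome 14. In GRCm38 (GENCODE M21), Gzme runs from 56117626 to 56120625 and Gzmd from 56129556 to 56132608, each with 5 exons, 8930 bases apart. Their annotated transcripts of 916 and 964 bases were identical at 90.04% of aligned positions, gaps included. In the last 400 bases, where a 3′ kit reads, no run of 90 bases of either transcript recurred in another gene, while 9.97% of the 50-base runs of Gzme and 13.1% of those of Gzmd did. Counts of the pair can therefore be told apart for long reads but are less certain for short ones, and no source used here states the read length.

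The 250 bases before the RefSeq start of each gene (GRCm38.p6, minus strand) are shown because most cells with Gzmd also had Gzme, and Gzmg because it is a close paralog that stayed near 0. Capitals mark matches to TGTGGT, the core bound by RUNX factors, to the TATA box variant spelled TTTAAAA, and to the cAMP response element TGACGTCA, all searched on both strands.
Gzme, chr14:56120626-56120875: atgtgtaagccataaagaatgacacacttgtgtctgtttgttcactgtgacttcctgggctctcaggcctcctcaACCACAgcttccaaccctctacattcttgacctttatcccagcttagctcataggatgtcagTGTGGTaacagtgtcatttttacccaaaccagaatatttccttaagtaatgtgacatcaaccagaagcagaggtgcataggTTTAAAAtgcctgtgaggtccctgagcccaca
Gzmd, chr14:56132594-56132843: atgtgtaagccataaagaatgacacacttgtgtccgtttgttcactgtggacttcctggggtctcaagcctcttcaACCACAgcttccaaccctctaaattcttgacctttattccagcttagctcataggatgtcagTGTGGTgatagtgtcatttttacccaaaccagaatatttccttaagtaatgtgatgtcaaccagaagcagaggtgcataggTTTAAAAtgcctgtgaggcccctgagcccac
Gzmg, chr14:56159580-56159829: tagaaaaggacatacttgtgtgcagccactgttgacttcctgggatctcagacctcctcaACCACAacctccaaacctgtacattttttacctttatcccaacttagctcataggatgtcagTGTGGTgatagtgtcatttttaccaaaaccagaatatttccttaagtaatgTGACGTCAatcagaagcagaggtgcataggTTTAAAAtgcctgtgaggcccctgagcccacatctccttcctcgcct

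The upstream windows of Gzme and Gzmd were 94.8% identical. Each held 2 matches to TGTGGT, at -175 and -113 in Gzme and at -174 and -112 in Gzmd, counted from the RefSeq start, which for Gzmd lies just inside the GENCODE gene. Windows with at least 1 match made up 14.05% of 32851 RefSeq windows of the same length, and windows with 2 or more 1.27%. The paralogs Gzmg, Gzmf, Gzmc and Gzmb and the neighbour Mcpt8 also had 2 matches, while the near-silent Gzmn had 0. The pair of matches thus occurred in the expressed members and also in near-silent ones such as Gzmg and Gzmf. TTTAAAA occurred at -32 in Gzme and -31 in Gzmd, and also in Gzmg, Gzmf and Mcpt8, against 8.10% of all windows. TGACGTCA, found in 1.55% of all windows, occurred in Gzmg, Gzmf and Gzmc but in neither Gzme nor Gzmd, and TGANTCA, the AP-1 site found in 6.75%, occurred in Gzmb alone of the 8 genes searched. None of these matches is evidence of a bound factor.

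Gzme was counted at 561 UMIs over the uninjured EGFP lineage cells and at 13027 UMIs over those of day 3. In CPM, counts scaled to 1000000 UMIs of the class, this was 9.77 (95% Poisson interval 8.98 to 10.6) in the uninjured library and 118.8 (117 to 121) at day 3, a ratio of 12.2 (exact interval 11.2 to 13.3). Gzmd was lower throughout, with 101 UMIs or 1.76 CPM uninjured and 2086 UMIs or 19.0 CPM at day 3, and its ratio was 10.8 (8.85 to 13.3). Both members were thus at least 2-fold higher at day 3, a step that 17.1% of the 8114 genes with at least 10 CPM in either library also made. Among the 3191 genes with at least 50 CPM in either library, of which 16.7% were at least 2-fold higher, Gzme had the 18th highest ratio. In the uninjured library Gzme was under both minimums and Gzmd under that of 10 CPM, so each entered through its day 3 level. Such a minimum favours a high ratio, and the step and the rank are a description only. Intervals here cover counting error only: with 1 library per group there is no replicate check, and injury, sex and other differences between the libraries cannot be told apart. Of the lineage cells, the 441 called male at day 3 had 83.4 CPM of Gzme and the 2272 called female 124.0, against 10.2 CPM in uninjured male cells, so the ratio within male cells was 8.21.

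Within the lineage class the 2 genes were far from even. Gzme stood at 214.3 CPM in cluster 5 and at 96.7 in cluster 6, which with cluster 10 make up most of the day 3 lineage cells. Cluster 10, led by Nppc, Mmp3, Crabp1 and Il33, had 12.5 CPM, within counting error of the 12.3 CPM of the uninjured cluster 4. Cluster 5 was led by Gzme itself, its neighbour Mcpt8, the growth factor gene Bmp2 and Serpinb2. Cluster 6 was led by Tm4sf1, H1fx, Prkg2 and Fosl1, with Gzme lower among its leading genes. Leading genes were ranked by their CPM over the mean CPM of all other clusters, leukocyte clusters among them. The uninjured clusters 13 and 17 were lower, at 6.06 and 5.77 CPM. In the contractile cluster 19, Gzme had 0 UMIs in 84 uninjured cells and 34.9 CPM in 214 day 3 cells. Clusters 5 and 6 held 8683 and 3929 of the 13027 Gzme UMIs of day 3 lineage cells.

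Among the large clusters, Gzmd was likewise highest in 5 and 6. It had 33.5 CPM in cluster 5, 17.3 in cluster 6 and 0.420 (11 UMIs) in cluster 10. Cluster 4 had 2.74 CPM and held 97 of the 101 uninjured Gzmd UMIs, cluster 17 had 0.502 CPM and cluster 13 none, so cluster 10 was below cluster 4 here. Cluster 22, cells of a median of 1170 UMIs led by the cartilage genes Acan and Col2a1, had 10 Gzme and 9 Gzmd UMIs, too few to rank. The mixed cluster 16 of day 3 had 57.5 CPM of Gzme and 4.53 of Gzmd, against 2.02 CPM of Gzme in the mixed cluster 12 of the uninjured library. Adding the mixed clusters to the class gave 113 CPM of Gzme at day 3.

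**Figure D1:**
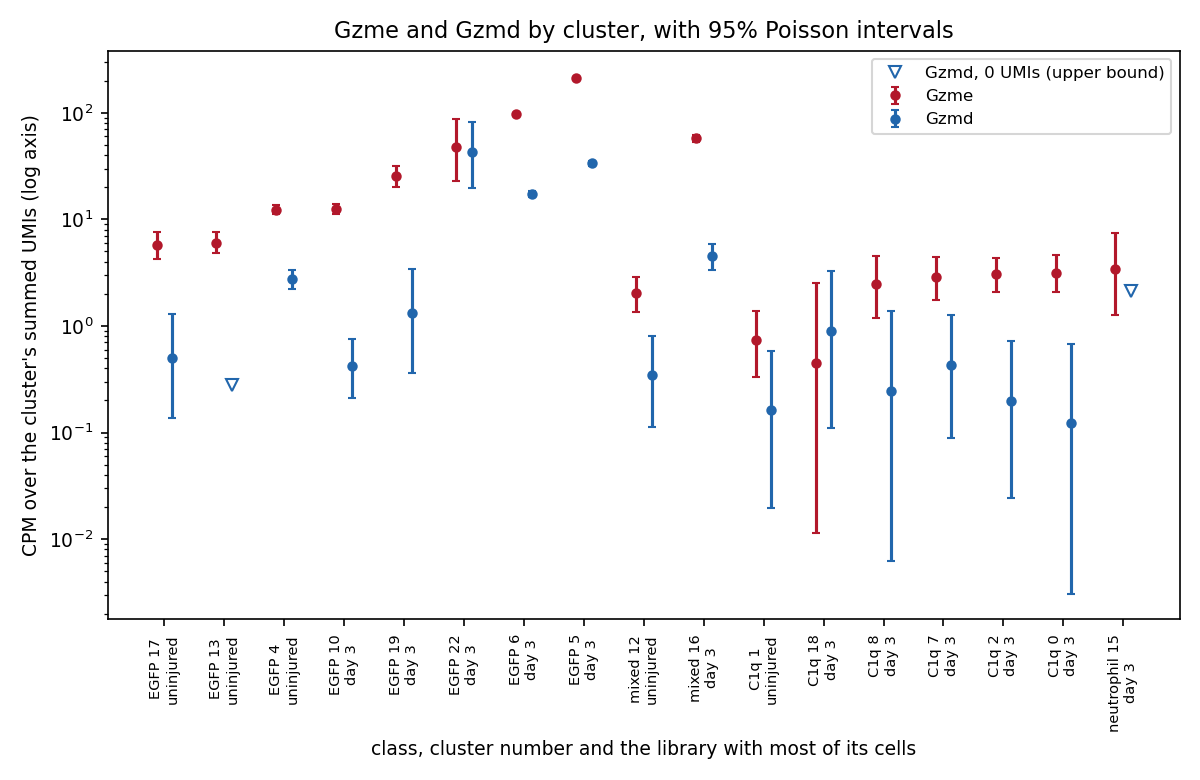
Levels of Gzme (red) and Gzmd (blue) in CPM over each cluster's summed UMIs, on a log axis, with 95% Poisson intervals; clusters are ordered by class, by the library that gave most of their cells, and by Gzme. Gzme ranges from 5.77 to 214.3 CPM across the EGFP lineage clusters, and the C1q macrophage clusters drawn and the neutrophil cluster lie below its lowest lineage value; the shallow C1q cluster is not drawn. Open triangles are upper bounds where 0 UMIs were counted.

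The macrophages and neutrophils of the same libraries had few granzyme transcripts. C1q macrophages had 9 Gzme UMIs (0.728 CPM) uninjured and 88 (2.80 CPM) at day 3, and the day 3 neutrophils had 6 (3.49 CPM). The shallow C1q cluster, outside the macrophage class for its depth, had 14 Gzme UMIs over both libraries, or 6.22 CPM (3.40 to 10.4), which overlaps the lowest lineage clusters. The day 3 lineage level was 42.4-fold (34.4 to 52.9) that of macrophages and 34.0-fold (15.6 to 92.6) that of neutrophils. For Gzmd, the macrophages had 1 and 10 UMIs, and the lineage level at day 3 was 59.7-fold (32.4 to 124.7) higher. Day 3 neutrophils had no Gzmd UMI, which allows up to 1.75 CPM (3 counts over the class), so lineage cells were at least 10.9-fold higher by this limit, and the exact interval of the fold starts at 8.84. Of all genes with at least 10 CPM in either class at day 3, 16.2% were at least 2-fold higher in lineage cells than in macrophages and 44.3% than in neutrophils. Gzme and Gzmd passed this minimum through the lineage class alone. The uninjured neutrophils were 7 cells and give no usable limit.

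The few Gzme UMIs of macrophages were set against EGFP, a transcript those cells should lack. At day 3 there were 63.6 Gzme UMIs per 1000 EGFP UMIs in lineage cells, 56.3 in macrophages and 32.4 in neutrophils. The lineage value was 1.13-fold (0.917 to 1.41) the macrophage value and 1.96-fold (0.901 to 5.35) the neutrophil value, and both intervals include 1. In the uninjured library the values were 3.81 and 7.18, a fold of 0.530 (0.277 to 1.17). Against Serpinb2 instead, the day 3 lineage cells had 319.1 Gzme UMIs per 1000 and the macrophages 155.5, a fold of 2.05 (1.66 to 2.56). Whether the macrophage UMIs came from RNA released by other cells was not tested.

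The share of cells with a UMI was compared after every cell was thinned at random to 3000 UMIs. By this measure 37 of 2196 uninjured lineage cells, 1.68% (95% Clopper-Pearson interval 1.19 to 2.31), and 414 of 3020 day 3 lineage cells, 13.7% (12.5 to 14.99), had Gzme. The macrophage shares were 0.361% and 0.898%, and 5 of 222 day 3 neutrophils (2.25%, 0.735 to 5.18) had it. Among the day 3 cells of the mixed clusters, 45 of 433 had Gzme (10.4%, 7.68 to 13.7), an interval that overlaps that of the lineage cells. Gzmd was found in 0.319% and 3.28% of lineage cells, in 0 of 1108 uninjured macrophages, which allows up to 0.271%, and in 3 of 4233 day 3 macrophages. Shallower cells were left out: 7 and 213 lineage cells, 68 and 798 macrophages, 242 of the 464 day 3 neutrophils and 16 of the 449 day 3 mixed cells. For scale, EGFP was found in 97.8% and 98.4% of lineage cells and in 25.1% and 12.4% of macrophages. Without thinning, 6.45% of uninjured and 31.8% of day 3 lineage cells had Gzme, and 0.765% and 1.73% of macrophages. Among day 3 clusters the thinned share was 25.9% in cluster 5, 12.2% in cluster 6, 5.37% in cluster 19 and 1.58% in cluster 10.

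**Figure D2:**
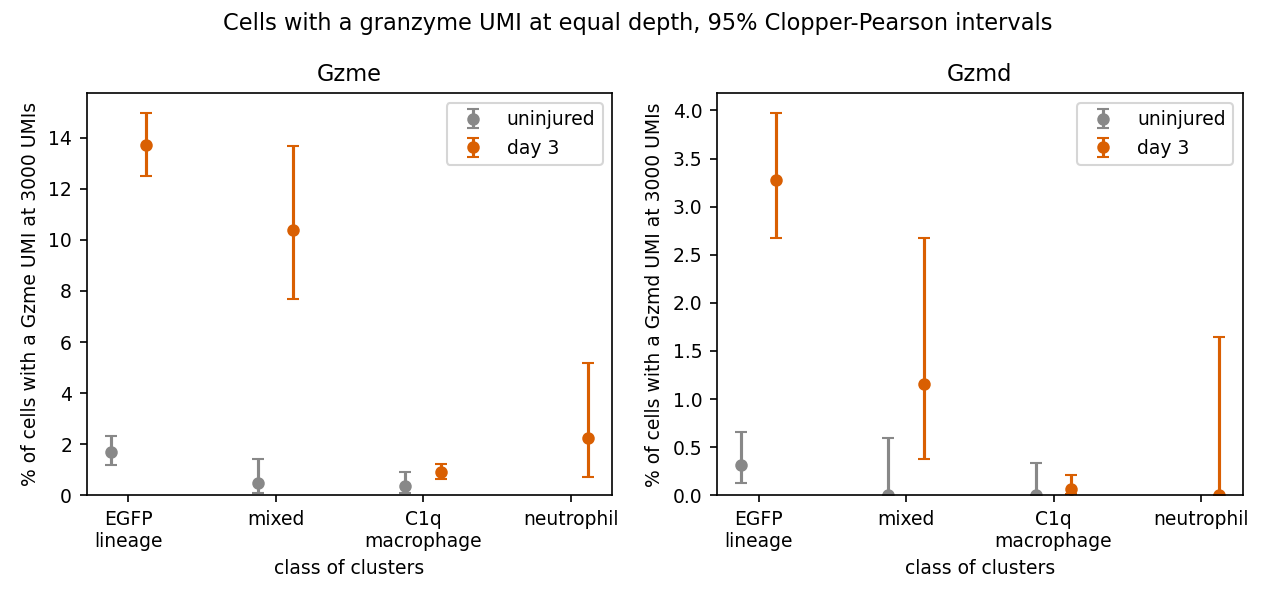
Percent of cells with a Gzme (left) or Gzmd (right) UMI after thinning each cell to 3000 UMIs, by class, in the uninjured (grey) and day 3 (orange) libraries, with 95% Clopper-Pearson intervals; classes under 50 cells are not drawn. The day 3 EGFP lineage cells stand at 13.7% for Gzme and 3.28% for Gzmd. Both values are above the uninjured lineage cells, the macrophages of either library and the day 3 neutrophils. The day 3 cells of the mixed clusters stand between, at 10.4% for Gzme and 1.15% for Gzmd, and their Gzme interval overlaps that of the lineage cells.

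Most day 3 lineage cells had no Gzme even at greater depth, and a few had many. With cells thinned to 10000 UMIs, which left out 405 of the 3233, 76.9% of 2828 cells had none, the mean was 1.05 UMIs and the highest cell had 57. The 10% of cells with the most held 82.7% of all Gzme UMIs, and 172 cells (6.08%) had 6 or more. The variance was 11.1 times the mean (the Fano factor), against 1.73 for Prrx1, a mesenchymal transcription factor, 2.66 for EGFP and 12.7 for Serpinb2. Inside cluster 5, 58.7% of 989 cells had none, 17 cells had over 20 UMIs, the 10% of cells with the most held 66.6% of the UMIs, and the Fano factor was 12.0. Of the 734 cells of cluster 10, only 1 reached 6 UMIs. In the uninjured library 96.2% of 2125 lineage cells had none, yet 9 cells had 6 or more and the highest had 18, so cells of a high level were present there too, in a smaller share.

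**Figure D3:**
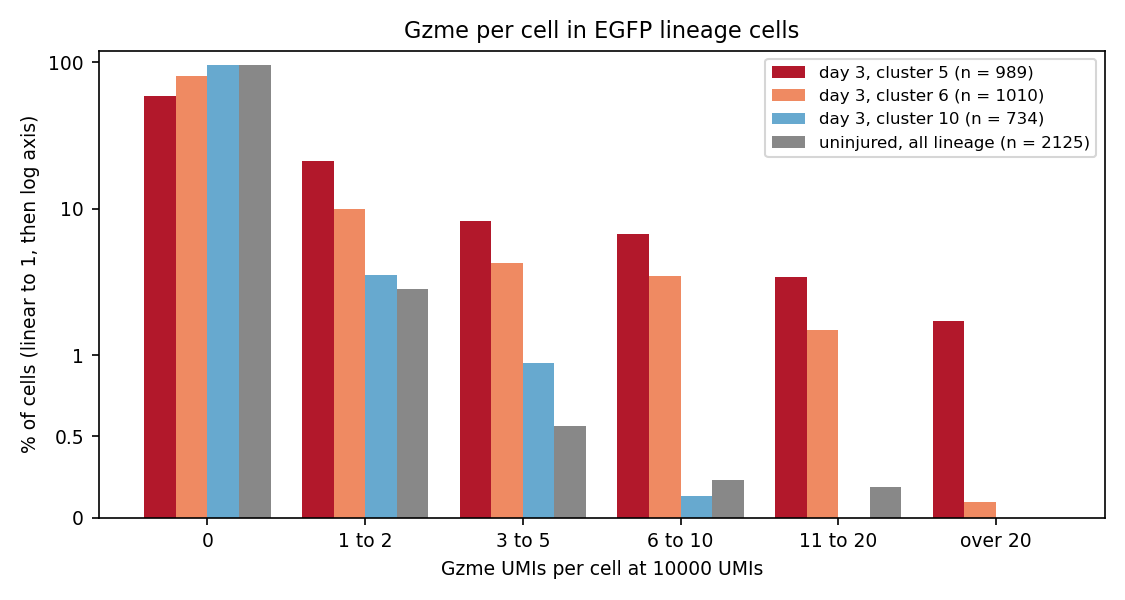
Percent of cells (linear up to 1, then a log axis) by the number of Gzme UMIs per cell at 10000 UMIs, for day 3 lineage clusters 5, 6 and 10 and all uninjured lineage cells. Cluster 5 has 1.72% of its cells above 20 UMIs and 58.7% at 0, while cluster 10 and the uninjured cells are at 95.4% and 96.2% at 0.

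Gzmd was found mainly in cells that also had Gzme. At day 3, 151 of the 2828 thinned cells had both, 501 had Gzme alone, 37 had Gzmd alone and 2139 had neither. Of Gzmd cells 80.3% had Gzme, against 23.1% of all cells. The mean Gzmd count was 0.0211 in cells without Gzme, 0.150 with 1 or 2 Gzme UMIs, 0.455 with 3 to 5 and 1.80 with 6 or more. Pearson's r of the log counts was 0.53 over all these cells and 0.51 after centring within clusters. In the uninjured library, 8 cells had both, 73 Gzme alone and 3 Gzmd alone, with an r of 0.50. These r values, and those below, describe cells of 1 library at equal depth, which are not replicates, and carry no p. Runs of sequence that the 2 transcripts share could add to their co-detection, which was not tested.

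The gene with the highest r with Gzme at day 3 was not Gzmd but Mcpt8, mast cell protease 8, otherwise a basophil granule protease. Its r was 0.71 over the 2828 cells, 0.68 within clusters, and 0.71, 0.69 and 0.40 inside clusters 5, 6 and 10. Mean Mcpt8 was 0.288 UMIs in cells without Gzme and 1.72, 3.21 and 7.11 in the 3 bins of growing Gzme. Of the 652 cells with Gzme, 475 (72.9%) had Mcpt8, against 29.2% of all cells. In the other direction, 57.6% of the 825 cells with Mcpt8 had Gzme, below the 80.3% of Gzmd cells. Gzmd was in only 6.65% of cells, and the part of this lower abundance in its lower r was not tested. In the uninjured lineage cells the r was 0.48, with Mcpt8 in 80 of 2125 cells.

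Among genes found in at least 10% of the cells, which leaves out Gzmd, the next value after Mcpt8 was 0.35. Of these 7391 genes, 29 (0.392%) had an r of 0.2 or higher and 17 (0.23%) an r of -0.2 or lower, and within clusters 9 and 5 did. After Mcpt8 came Timp3, an inhibitor of metalloproteinases (r 0.35, 0.22 within clusters), the IGF-binding protein gene Igfbp5 (0.31, 0.26) and Serpinb2, an inhibitor of plasminogen activators (0.30, 0.20). Next were Tnc, a matrix glycoprotein of wounds, Loxl2, a collagen cross-linking enzyme, Spp1, osteopontin, and Tnfsf11, the osteoclast factor RANKL. They lay between 0.29 and 0.30 and kept 0.24 to 0.27 within clusters. Inside cluster 10, where 95.4% of cells had no Gzme, Spp1, Timp3, Tnfsf11 and Igfbp5 were at -0.06, 0.01, 0.04 and 0.09. Tnc and Serpinb2 were at 0.15 there and Loxl2 at 0.18. In the 420 thinned cells that were not cycling, however, Tnc, Spp1 and Tnfsf11 were at 0.16, 0.14 and 0.12, under the limit of 0.2. Mean Spp1 was 146.7 UMIs per cell without Gzme and 360.5 with 6 or more, and mean Tnc 2.87 and 8.18. The 15 highest were completed by the antioxidant enzyme genes Gpx3 and Prdx5, the actin-binding Tmsb10, Ugcg, Irx3, Ifitm3 and the cadherin gene Cdh11, all at 0.24 to 0.27, of which Tmsb10, Prdx5, Irx3 and Cdh11 were at 0.15 to 0.19 without cycling cells.

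The lowest r belonged to S100a4, a calcium-binding protein gene of fibroblasts, at -0.34 (-0.27 within clusters). Its mean was 43.9 UMIs in cells without Gzme and 21.6 in those with 6 or more. Igfbp6 (-0.31) and Arhgdib (-0.29) followed. Mean Igfbp6 was 1.96 UMIs without Gzme and 0.442 with 6 or more. Oaf, Pcdh7, the lamin gene Lmna, Nrn1, the noncoding RNA Meg3, Igfbp4 and Crip1 completed the 10 lowest, between -0.27 and -0.22. Without cycling cells Oaf, Lmna and Pcdh7 were at -0.15, -0.17 and -0.20, short of the limit. Meg3 and Crip1 were at -0.09 within clusters, so most of their r over all cells lay between clusters.

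**Figure D4:**
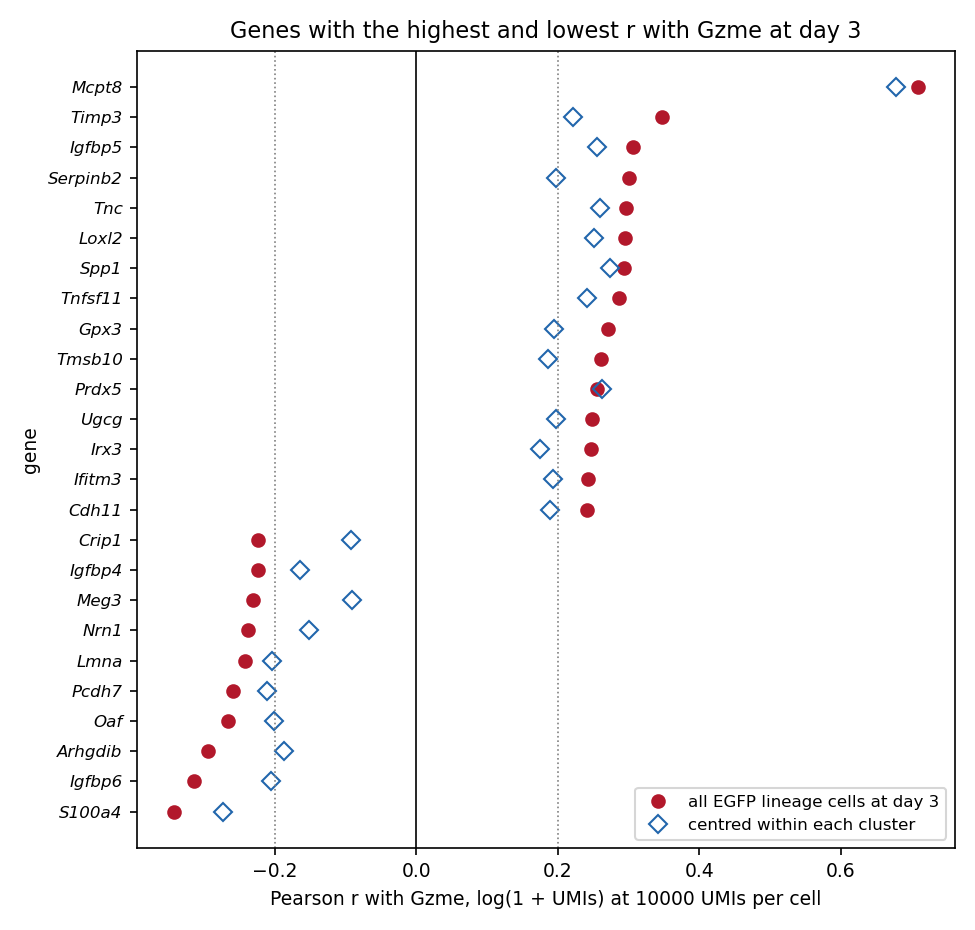
Pearson r with Gzme over 2828 day 3 lineage cells at 10000 UMIs each, for the 15 genes with the highest and the 10 with the lowest value, over all cells (red) and after centring within clusters (blue diamonds); dotted lines mark 0.2 and -0.2. Granzyme genes, among them Gzmd at 0.53, and genes in under 10% of cells are not drawn. Of the genes drawn, Mcpt8 is highest at 0.71 and Timp3 next at 0.35, and most values are nearer 0 within clusters.

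Of the 7 lineage identity genes tested, 0 passed 0.2 in either direction, with a median r of -0.03 against -0.01 over all genes. EGFP was at 0.07, Pdgfrb and Prrx1 at 0.02, and Twist2 at -0.09 and Pdgfra at -0.17. Mean Pdgfra was 0.658 UMIs in cells without Gzme and 0.221 in those with 6 or more, while mean EGFP was 18.6 and 20.0. Of 9 progenitor surface genes only Cd34 passed, at -0.21, while Ly6a was at -0.19 and Nt5e and Alcam were highest at 0.11 and 0.07. Among 4 osteogenic genes Spp1 passed and Col1a1 stood at 0.20, just under the limit, with Sparc at 0.05 and Runx2, the osteoblast transcription factor, at -0.02. Among 7 contractile genes the median was 0.16, and only Tpm1 passed, at 0.20 (0.10 within clusters), followed by Myl9 at 0.20. Cnn2 and Cald1 were the lowest at 0.13 and 0.07. Of 6 fibroblast matrix genes Tnc alone passed, Col1a2 had 0.14, Col3a1 -0.01 and Dcn -0.18. The cartilage regulators Sox9 and Sox5 were at -0.13 and -0.10, and no tendon gene of the list was in 10% of the cells.

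The injury list was chosen with these data known, and 1 of its 20 tested genes, Serpinb2, passed, with a median of 0.01. Grem1, a BMP antagonist, had 0.18, while Mmp3 and Ereg were lowest at -0.15 and -0.13. Bmp2, a leading gene of cluster 5 like Gzme, was at -0.01. Its mean was 1.01 UMIs in cells without Gzme and 1.24 in those with 6 or more. Among lineage clusters Bmp2 was not confined to cluster 5, with 160.6 CPM there, 110.4 in cluster 10 and 62.4 in cluster 6. None of 15 mitotic genes passed, and their median was -0.02, with Cks2 highest at 0.06 and Ube2c next at -0.01, and Mki67 and Birc5 lowest at -0.06 and -0.05. Cells called cycling, a call on unthinned counts that deeper cells pass more easily, had more Gzme, 124.3 CPM against 74.3 at day 3 and 11.001 against 5.01 uninjured. In the 4 bins of growing Gzme the cycling share was 84.2%, 87.0%, 88.1% and 91.3%, and the median depth before thinning 33069.5, 36443.5, 36980.0 and 40332 UMIs. Their part in the levels was not tested. Without cycling cells, the lineage over macrophage fold of Gzme at day 3 was 25.4, and Gzmd was left with 1 uninjured UMI, which gives a ratio of 152.5 (27.0 to 6059.7). In the uninjured lineage cells, where 96.2% had no Gzme, 0 of the 6856 genes found in at least 10% of cells passed 0.2 in either direction, and Tmsb10 was highest at 0.18. That minimum left out Gzmd, Mcpt8 and Gzmc, whose r there was 0.50, 0.48 and 0.43.

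The chromosomal neighbours of the 2 genes were examined after the place of Mcpt8 beside them had been seen. From Mcpt1 to Gzmb, 14 features lie in a row, and 9 of them were under 1 CPM in day 3 lineage cells. Mcpt8, 32352 bases from Gzme, had 9.79 CPM uninjured and 109.7 at day 3, a ratio of 11.2 (10.3 to 12.2), which resembles both members. Ctsg, cathepsin G of neutrophil granules, lies between Mcpt8 and Gzme, 15051 bases from the latter, and was highest outside the lineage class. In lineage cells it had 3 UMIs uninjured and 94 (0.857 CPM) at day 3, a ratio of 16.4 (5.44 to 81.0). It stood at 64.6 CPM in neutrophils and 178.9 CPM in the other clusters of day 3, and its r with Gzme was -0.01. Mcpt1, at the far end, had 0 UMIs uninjured and 608 (5.54 CPM) at day 3. These UMIs sat in few cells: 24 of the 2828 thinned cells had Mcpt1, and 21 of them had Gzme.

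Gzmc, at the other side, had 116 and 385 UMIs, a ratio of 1.74 (1.41 to 2.16), far below that of Gzme. All 40 day 3 cells with Gzmc also had Gzme, and 13 of 23 did in the uninjured library. Its r with Gzme was 0.30 at day 3 and 0.43 uninjured, in 1.41% and 1.08% of cells. Gzmb, 138212 bases from Gzme, differed in direction, with 60 UMIs (1.04 CPM) uninjured and 18 (0.164 CPM) at day 3, a ratio of 0.157 (0.0873 to 0.270). Between Gzmd and Gzmc, Gzmg had 0 and 8 UMIs, Gzmn 2 and 6 and Gzmf 0 and 1.

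**Figure D5:**
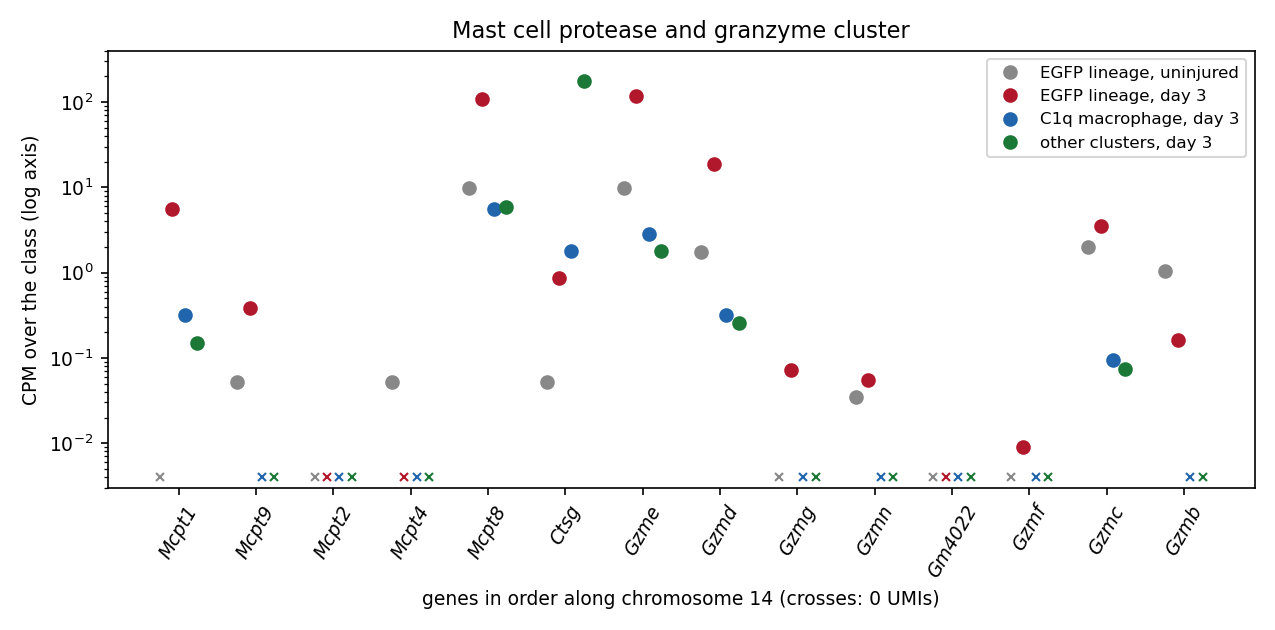
CPM (log axis) of 14 neighbouring features in their order along chromosome 14, in EGFP lineage cells of the uninjured (grey) and day 3 (red) libraries and in C1q macrophages (blue) and other clusters (green) of day 3; crosses mark 0 UMIs. Mcpt8, Gzme and Gzmd are highest in day 3 lineage cells at 109.7, 118.8 and 19.0 CPM, while Ctsg between them is highest in the other clusters at 178.9 CPM.

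Of the 10 granzyme genes, only Gzme and Gzmd reached 10 CPM in lineage cells. Elsewhere in the family, Gzma had 0 UMIs in both libraries, Gzmk 0 and 1, and Gzmm 17 and 36. Prf1, which makes the pore that granzymes need to enter a target cell, had 0 UMIs in lineage cells, which allows up to 0.0522 CPM uninjured and 0.0274 at day 3, and also 0 in macrophages and neutrophils. Of the maturation and storage genes, Srgn stood at 3.27 and 1.92 CPM in lineage cells against 82.5 and 84.6 in macrophages. Ctsc had 5.52 CPM uninjured and 16.3 at day 3, a ratio of 2.95 (2.62 to 3.34), while macrophages had 246.5 and 432.6 CPM. Cathepsin H (Ctsh), a further activator of granzyme B, had 32.3 and 71.1 CPM. The mannose 6-phosphate receptors that sort granzymes to granules were at 20.9 and 56.8 CPM for Igf2r and at 62.8 and 67.8 for M6pr.

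Among the serpin genes listed as possible inhibitors, Serpinb6a was abundant, at 384.4 CPM uninjured and 914.8 at day 3, with 343.8 in day 3 macrophages. Serpinb6b had 0.575 and 0.656 CPM in lineage cells. Whether any of these serpins inhibits granzyme E or D was not tested. Serpinb9, the inhibitor of granzyme B, had 3.97 and 3.36 CPM, and its paralog Serpinb9b 0.313 and 2.08. Serpinb9c, Serpinb9d, Serpinb9e, Serpinb9f and Serpinb9g had 0 UMIs. None of the 5 partner genes found in 10% of the day 3 cells passed an r of 0.2 with Gzme in either direction. Ctsc had 0.13, Ctsh 0.06, M6pr -0.03, Igf2r -0.05 and Serpinb6a -0.07. Mean Ctsc was 0.119 UMIs in cells without Gzme and 0.314 in those with 6 or more, and mean Serpinb6a 9.22 and 8.08.

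Most defining markers of cytotoxic lymphocytes were at or near 0 in lineage cells. Of 19 cytotoxic T and natural killer cell markers, 8 were at 0 in uninjured and 6 in day 3 lineage cells, the latter Cd8a, Trbc1, Klrb1c, Ncr1, Klrk1 and Gzma. The list summed to 23.6 CPM uninjured, led by Ccl5, and to 31.1 CPM at day 3, of which the T cell receptor segment Trbc2 made 27.1. Of the 10 mast cell and basophil markers, Tpsb2, Tpsab1, Mcpt4 and Fcer1a were at 0 at day 3, and Mcpt8 made up 109.7 of the summed 109.9 CPM. Leukocyte markers in lineage cells also differed between the libraries: the 14 neutrophil markers summed to 13.5 CPM uninjured and 219.3 CPM at day 3, led by S100a8, and the 12 C1q macrophage markers to 167.0 and 84.3 CPM. Their part in the granzyme levels was not tested.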

How the data were processed

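The authors deposited 1 gene by cell matrix of UMI counts per library. Per the submitters' processing notes, the genome was mm10 and the tools included Seurat 4.0.1 and Cell Ranger. How barcodes were called and the read length are not given in the sources used here. Per the labels the molecule was genomic DNA, while the kit is one for RNA. UMI counts of a 3′ kit sample transcript ends, so no length term was used between genes.

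Cells with under 500 genes, under 1000 UMIs or over 10% mitochondrial UMIs were left out (69 uninjured and 1412 day 3 barcodes for depth, 73 and 457 for mitochondrial share). The automatic Scrublet threshold marked 0 cells, so the highest doublet scores were removed at 0.8% per 1000 barcodes (162 and 1890), in scanpy 1.11.5. Clusters came from 2000 variable genes without granzymes, 30 principal components, 15 neighbours and Leiden clustering at resolution 1 (leidenalg 0.10.2). Clusters were assigned to classes by marker levels set after the clusters were seen: lineage clusters had at least 1000 CPM of EGFP and under 10 CPM of Ptprc. Cells with at least 3 UMIs of mitotic genes were called cycling. Members, lists and alternatives were chosen with earlier results of these data known.

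UMIs were summed per class and library. Levels have exact Poisson intervals, ratios exact conditional binomial intervals and shares Clopper-Pearson intervals, at 95%. PCR and droplet effects are not in them, and a 0 allows 3 counts. Shares used cells thinned to 3000 UMIs and r cells thinned to 10000, on log(1 + UMIs). With 1 library per group no test across samples was possible. The genes named are both members, listed granzymes and partners of at least 10 CPM in a class, the 15 highest and 10 lowest r (no granzymes, mitochondrial or ribosomal genes or gene models) and the 2 extremes of each lineage list. The ratio and r steps were also run on simulated counts with Poisson noise and planted changes. That setting is simpler than real cells, and no result here rests on it. Gene models came from GENCODE M21, which held 30934 of the 31055 features, and upstream sequences from RefSeq (GRCm38.p6). The alternatives included TMM factors from edgeR 4.0.16.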

Additional observations from a re-analysis of the deposited data

Results flagged for a closer look

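Gzmb had opposite directions in 2 classes of cells. Its day 3 over uninjured ratio was 0.157 in EGFP lineage cells (60 and 18 UMIs) and 13.8 in the mixed EGFP and leukocyte clusters (1 and 11 UMIs, interval 2.00 to 592.1). The difference itself was not tested.

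Barcodes that the filters removed also carried Gzme. In the day 3 library they held 1971 Gzme UMIs, or 45.2 CPM, against 21 UMIs, or 3.73 CPM, in the removed barcodes of the uninjured library. These barcodes entered no comparison.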

How the results depend on the processing

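The ratio of day 3 to uninjured stayed above 1 for both members, and Gzme stayed higher in lineage cells than in macrophages, under all 14 alternatives. The Gzme ratio ranged from 8.21 to 14.8 and its lineage over macrophage fold from 25.4 to 46.6. Values that left the counting interval were as follows. With equal weight per cell, Gzme was 8.51 CPM uninjured and 98.1 at day 3, Gzmd 1.18 and 17.3, the Gzmd ratio 14.7 and the lineage over macrophage fold 30.2. Without cycling cells, Gzme was 5.01 and 74.3 CPM with a ratio of 14.8, Gzmd 0.0848 and 12.9 CPM with a ratio of 152.5, and the fold 25.4. In male cells alone, Gzme was 83.4 CPM at day 3 with a ratio of 8.21, and Gzmd 16.3 CPM with a ratio of 8.27. Thinned to 3000 UMIs, Gzme was 8.35 and 104.2 CPM and Gzmd 1.37 and 17.5. With the mixed clusters added, an alternative chosen after seeing the data, Gzme was 8.22 and 113.0 CPM with a ratio of 13.7, and Gzmd 17.6 CPM at day 3. Day 3 Gzme was 116.3 CPM with cells gated one by one, 116.7 with the libraries clustered apart, 114.3 and 114.9 at resolutions 0.5 and 2, and 114.4 with no doublet removal. TMM factors, granzymes among the clustering genes, a 20% mitochondrial limit and, chosen after seeing the data, leaving out lineage clusters of a median under 10000 UMIs moved none of these values beyond its interval.

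Shares follow depth. At 1000 UMIs Gzme was in 0.681% and 6.77% of lineage cells and Gzmd in 1.05% at day 3, at 10000 UMIs in 3.67% and 23.0%, with Gzmd in 6.61%, and unthinned in 6.45% and 31.8%, with Gzmd in 1.41% and 10.9%. At 3000 UMIs day 3 Gzme was 12.2% with no doublet removal and 12.3% with gated cells. The r of Gzmd with Gzme ranged from 0.38 to 0.60 over 9 alternatives. The number of genes with r of 0.2 or higher was 58 unthinned, 8 at 5000 UMIs and 9 within clusters, and of -0.2 or lower 3 and 5 in the last 2. Of 225 recomputed r values of the 25 named genes, 185 kept their side of 0.2, 40 fell inside it and 0 changed sign; Mcpt8 stayed between 0.60 and 0.78. With a 10 CPM minimum 1386 genes were at least 2-fold higher and 520 lower, and with none 4998 and 3506. No paired analysis was possible because each group is 1 library.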
